A study of Mus musculus with 2 samples.

Results

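The 50 genes described here encode mouse transcription factors with a basic helix-loop-helix (bHLH) or PAS domain, the ID proteins that inhibit them, and the p160 coactivators, which carry both domains. They are a list of names whose rule uses no measured value, drawn up with earlier results of these data known, and all 50 had probes on the array, 73 in all among 55681. RNA came from cultured 4T1 cells, a mammary carcinoma line of BALB/C mice, which had no treatment and were sorted for aldehyde dehydrogenase (ALDH) activity by the ALDEFLUOR dye assay. The ALDH-positive (high activity) and the ALDH-negative (low activity) population were each hybridized to 1 array of 60-base probes, and both arrays lay on the same slide. The sample labels call these populations "cancer stem cell" and "anti cancer stem cell", and the names used here follow the series title and the study's text. The gate marks enzyme activity in a single cell line and not a cell type.

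bHLH proteins bind DNA as dimers, most of them at a short sequence called the E-box, and the choice of partner decides whether a target is activated or repressed. The PAS domain adds a surface for partners and ligands, and the circadian activators CLOCK and BMAL1, the aryl hydrocarbon receptor (AHR) and the neuronal NPAS proteins all use it. MYC and its antagonists of the MXD family compete for the partner MAX, while the ID proteins lack the basic region and hold E proteins away from DNA.

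All intensities given here are background-subtracted and quantile-normalized, those of ALDH-negative cells come first, and every ratio sets ALDH-positive over ALDH-negative cells. Before normalization the ALDH-positive array was the brighter, by a median log2 ratio of 0.49 over the measured probes and 0.51 over the measured factor genes. A probe is called measured if the scanner software marked it as well above background on at least 1 array, and each gene stands by its brightest measured probe (mean log2 signal of both arrays). For a probe well above background on 1 array only, a nominal bound on the fold is given. It sets the bright signal against the lowest signal well above background on the dim array. It leaves out the errors of both signals and holds only for the background subtraction used here. Such a probe was measured through 1 array only, so the filter favours the sign of its ratio. Each population had 1 array, so no difference has a replicate check, no test was run and the precision is limited by the number of arrays. The error printed beside a log2 ratio is computed from the errors that the scanner software gave for each intensity and leaves out any spread between cultures. The words higher and lower are kept for genes past the selection limits of the study's methods, a Z-score of at least 2.0 with a ratio of at least 1.5, or a Z-score of at most -2.0 with a ratio of at most 0.75. The study's methods give these limits but do not define the Z-score, so the one used here was chosen for this report. Probes were ordered by mean log2 signal, and each log2 ratio was compared with the mean and SD of its 250 neighbours on both sides. The calls depend on this choice, since with a Z-score over all measured probes only *Npas3* of the factor genes was lower.

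The epithelial markers *Cdh1*, *Epcam*, *Krt8*, *Krt18* and *Krt19* were measured on both arrays. The leukocyte marker *Ptprc*, the endothelial markers *Cdh5* and *Tek* and the erythroid marker *Hba-a1* were not above background on either array. Other markers of these classes were measured on both arrays, the leukocyte marker *Cd3e* with intensities of 917 and 664, the endothelial marker *Pecam1* with 27.0 and 31.3, and the fibroblast markers *Col1a1* with 28.2 and 17.3, *Col1a2* with 40.0 and 39.5 and *Pdgfra* with 134.6 and 132.1, while *Pdgfrb* was not above background. Of 9 ALDH genes listed to check the sort, 7 were measured, of which none was higher or lower, with a median log2 ratio of 0.11, which was -0.0050 with the normexp background correction. *Aldh3a1* was at 0.02, but its other probe gave 0.62, and without the last eighth of the array, where that probe stands for the gene, it was higher.

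Of the 50 factor genes, 34 were measured, 32 of them with the standing probe well above background on both arrays. None of the 34 was higher in ALDH-positive cells, against 1.34% of all 13989 measured genes. *Clock*, *Npas3* and *Mlxipl* were lower, 3 of 34 against 2.05% of all measured genes. At the standing probes no factor gene had a ratio of 1.5 or more, which 5.06% of all measured genes had, and the same 3 genes had a ratio of 0.75 or less, against 6.14%. With the median over all probes of each gene, *Arntl2* (log2 ratio 0.79) and *Bhlhe41* (0.60) had ratios above 1.5 but did not pass the Z-score limit. Each of these medians includes a probe that was measured only through ALDH-positive cells. The median log2 ratio of the 34 genes was 0.0014, with 17 values above and 17 below 0, whereas the median over all measured genes was 0.045 and 39.3% of them lay below 0. With the median over all probes of each gene, these medians were 0.14 and 0.040, so their order depended on the probe choice. Between their quartiles the factor genes spanned -0.16 to 0.19, and all measured genes -0.083 to 0.18. In all, 13 values lay beyond their own error, 6 above 0 and 7 below 0, which is 38.2% of the factor genes against 33.1% of all measured genes.

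**Figure D1:**
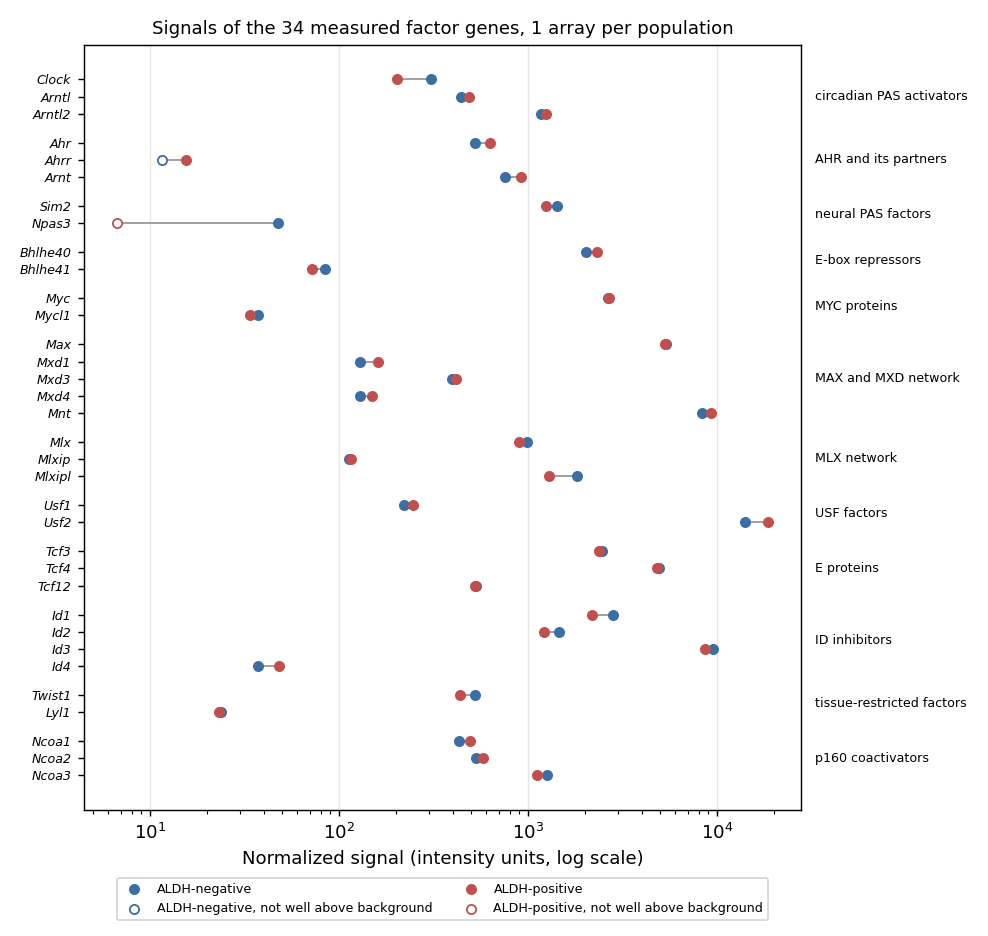
Normalized signal of the 34 measured factor genes (log axis, intensity units) in ALDH-negative and ALDH-positive 4T1 cells, grouped by role, with 1 point per array and open points where the probe was not well above background. The points of most genes lie close together, and those of *Npas3* (47.8 and 6.66) lie farthest apart.

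The other 16 genes were not well above background on either array, and no probe of theirs had a signal above 12.9. They were *Npas2*, *Arnt2*, *Sim1*, *Npas1*, *Npas4*, *Mycn*, *Mxi1*, *Twist2*, *Ascl2*, *Atoh8*, *Tal1*, *Msc*, *Tcf21*, *Hand1*, *Hand2* and *Figla*. Most of these are known from neurons, blood, muscle, heart or germ cells. For them the arrays give only an upper bound, and no ratio is given.

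The standing probes of *Clock*, *Npas3* and *Mlxipl* were all printed near an edge, within the last eighth of the array by row or by column. Of all 34 measured factor genes 8 lay there, 23.5% against 23.8% of all measured genes, with a median log2 ratio of -0.19 against 0.053 for the 26 elsewhere. Over all measured genes the median was 0.040 in the last eighth and 0.047 elsewhere, but 3.30% of genes were lower in the last eighth against 1.66% elsewhere, and 2.85% against 0.873% were higher. The measured spots within 10 rows and 10 columns of a factor probe had median log2 ratios between -0.025 and 0.097, and these were 0.032 around *Clock*, 0.0088 around *Npas3* and -0.0020 around *Mlxipl*. The part of the array position in these 3 results was not tested.

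**Figure D2:**
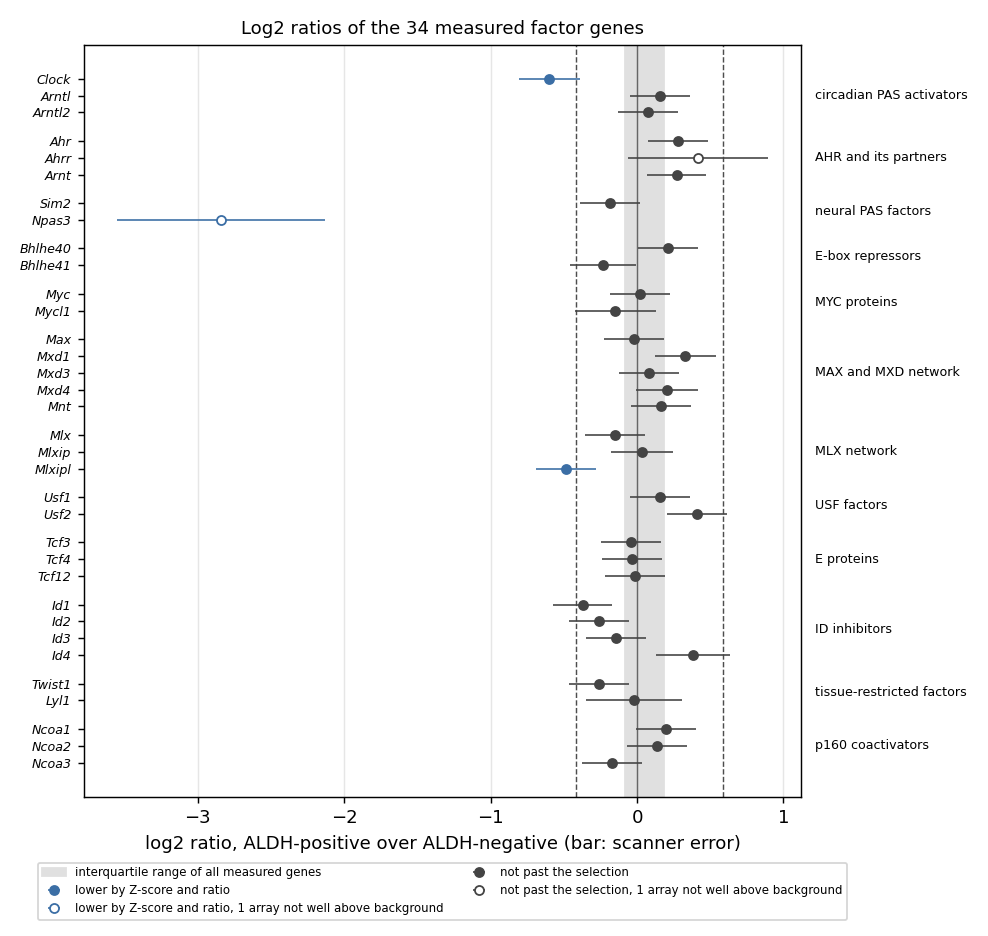
Log2 ratio (ALDH-positive over ALDH-negative) of the 34 measured factor genes by role, with the scanner software's error as the bar. Open points are measured values with 1 array not well above background, for which the text gives a nominal bound. The dashed lines mark ratios of 0.75 and 1.5 and the grey band the interquartile range of all measured genes (-0.083 to 0.18), and only *Clock*, *Npas3* and *Mlxipl* lie left of the lower line while none lies right of the upper line.

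The circadian PAS activators drive the daily transcription cycle from E-boxes. *Clock*, which encodes the DNA-binding partner of BMAL1, had intensities of 309 and 204 (log2 ratio -0.60, error 0.21) with a Z-score of -2.03, just past the limit. Before normalization these signals were 261 and 238 (log2 ratio -0.14), on arrays whose measured probes differed by a median log2 ratio of 0.49. The partner gene *Arntl*, which encodes BMAL1, had intensities of 441 and 490 (log2 ratio 0.15, within the error of 0.20). The paralog *Arntl2*, whose product BMAL2 can also pair with CLOCK, had intensities of 1179 and 1241 (log2 ratio 0.07). Only *Clock* of these 3 genes was lower, and both of its partner genes had values above 0. It was lower in 9 of 12 settings, and not after a 75th percentile shift, with 100 neighbours in place of 250 or with a Z-score over all measured probes. *Arntl2* had 2 more measured probes, with intensities of 35.8 and 61.9 (log2 ratio 0.79) and of 11.4 and 27.8. The latter was above background only in ALDH-positive cells, with a nominal bound of 2.12-fold. All 3 *Arntl2* values lay above 0, of which the filter favoured the sign of the last, and none passed the selection.

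The probe of *Clock* lay on the minus strand at chr5:76641377-76641436 of NCBI37, the build to which the array files refer. Those of *Npas3* (chr12:55169238-55169297, plus strand) and *Mlxipl* (chr5:135614195-135614252, plus strand) are placed by the same files. Their place within exons or untranslated regions was not analysed here.

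The genes that CLOCK and BMAL1 are known to activate were looked at through a list of 14 E-box outputs, of which 12 were measured. None was higher or lower, and 11 of the 12 log2 ratios lay above 0, as did 60.6% of all measured genes. Their median was 0.18 against 0.045 for all measured genes. Among the 11 was *Per2*, with intensities of 12.2 and 13.5 and a nominal bound of 1.03-fold. It was above background only in ALDH-positive cells, so the filter favoured its sign. Over the other settings of normalization, background, probe choice and array position the median stayed between 0.15 and 0.21. The values above 0 fell to 9 of the 12 with the normexp correction and after subtracting the neighbours on the array. *Dbp*, a PAR-domain factor whose transcript is a strong output of the clock, had intensities of 422 and 580 (log2 ratio 0.46, error 0.20), and its other probe gave 0.55. *Wee1*, a kinase that delays entry into mitosis, had intensities of 1232 and 1521 (log2 ratio 0.30). *Cry1*, a repressor of CLOCK and BMAL1, had the only value below 0, with intensities of 52.0 and 43.8 (log2 ratio -0.25, error 0.24). Earlier results of these data already showed the values above 0 of these outputs, so they are no independent support for a direction.

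The E-box with the letters CACGTG reads alike on both strands. In the RefSeq promoter sequences (assembly GRCm38.p6), it was searched in the 250 bases before the start of each gene, where 6.02% of all 32851 promoters hold it. Of the 50 factor genes 39 had an entry, with 49 promoters, of which 6 (12.2%) held it. Those of 5 measured factor genes are shown because their products bind this same element or compete for partners on it, with *Per1*, *Cry1* and *Ciart* as outputs of the clock and *Arrdc4* as a target of the MLX network. Of the promoters of the listed clock outputs, 5 of 13 (38.5%) held the E-box, and those of *Tef* are not shown. Of the promoters of the listed MLX network targets, only 1 of 8 (12.5%) held it, that of *Arrdc4*. Capitals mark the E-box in windows of 30 bases, written 5′ to 3′ on the strand of the gene.
Bhlhe41: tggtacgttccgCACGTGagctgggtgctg
Mxd4: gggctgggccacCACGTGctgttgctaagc
Mnt: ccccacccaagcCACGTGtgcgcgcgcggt
Mlx: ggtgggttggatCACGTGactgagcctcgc
Mlxipl: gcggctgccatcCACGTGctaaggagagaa
Per1: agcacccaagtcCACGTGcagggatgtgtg
Cry1: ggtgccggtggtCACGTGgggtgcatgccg
Ciart: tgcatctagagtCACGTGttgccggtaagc
Arrdc4: aaaggtcctgtgCACGTGcactatggtgtc
The window of *Bhlhe41* is chr6:145865556-145865585 (minus strand), that of *Mxd4* chr5:34187912-34187941 (minus), that of *Mnt* chr11:74830789-74830818 (plus), that of *Mlx* chr11:101087238-101087267 (plus) and that of *Mlxipl* chr5:135089780-135089809 (plus). That of *Per1* is chr11:69098771-69098800 (plus), that of *Cry1* chr10:85185097-85185126 (minus), that of *Ciart* chr3:95882327-95882356 (minus) and that of *Arrdc4* chr7:68749414-68749443 (minus). The E-box began 40 bases before the start of *Mlx*, 98 before that of *Mlxipl*, 123 before that of *Mnt*, 153 before that of *Bhlhe41* and 219 before that of *Mxd4*. *Ciart*, which encodes a repressor of the clock, held 3 such E-boxes, at 116, 58 and 44 bases before its start. The 5 factor genes shown had log2 ratios from -0.49 (*Mlxipl*) to 0.20 (*Mxd4*), on both sides of 0. A match of letters is a description and does not show that a factor binds there.

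AHR is a ligand-activated PAS factor that pairs with ARNT to induce enzymes of xenobiotic metabolism. *Ahr* had intensities of 522 and 632 (log2 ratio 0.28, error 0.20). *Arnt*, whose product is also the partner of the HIF alpha subunits, had intensities of 758 and 914 (log2 ratio 0.27, error 0.20). *Ahrr*, which encodes a repressor that competes with AHR for ARNT, was above background only in ALDH-positive cells. Its intensities were 11.6 and 15.5, with a nominal bound of 1.18-fold, and its log2 ratio was 0.034 with the normexp correction. *Ahr* and *Arnt* lay above 0, while *Ahrr* was measured only through ALDH-positive cells, so its sign is no support for a direction. None of the 3 was higher by the selection, and *Arnt2* was not measured. The other probe of *Arnt*, at chr3:95299434-95299493 of NCBI37, had intensities of 290 and 450 (log2 ratio 0.63, error 0.20, Z-score 2.64). It was the only one of the 49 measured factor probes past the limits for higher, against 1.45% of all 28585 measured probes, whereas 3 were past those for lower, against 2.88%.

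Of 9 targets of AHR 5 were measured, of which none was higher or lower, with a median of 0.025. The median was 0.27 with the median over all probes of each gene, and 1 target, *Aldh3a1*, was higher by its other probe (log2 ratio 0.62) without the last eighth of the array, where 2 targets were left. *Nqo1*, a quinone reductase, had intensities of 165 and 204 (log2 ratio 0.30, error 0.21). *Cyp1b1*, a cytochrome P450, had 459 and 555 (log2 ratio 0.27, error 0.20). The split of the 5 values around 0 depended on the scaling, with 3 above 0 after quantile normalization and 5 after a shift to a common 75th percentile. All 4 chaperones of AHR were measured and lay within 0.085 of 0, with *Ptges3*, the cochaperone p23, at -0.08 (its other probes between -0.14 and -0.07) and *Hsp90ab1* at 0.07. The HIF alpha genes, which share ARNT with AHR, had values of -0.07 for *Hif1a*, -0.39 for *Epas1* and -0.10 for *Hif3a*, but the other probe of *Hif1a* gave 0.20. *Epas1*, which encodes HIF-2 alpha, had intensities of 2951 and 2253 (error 0.20, Z-score -1.37), and it was not lower by the selection.

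The neural PAS factors control the development and function of neurons. *Npas3* had an intensity of 47.8 in the ALDH-negative and of 6.66 in the ALDH-positive population, where it was not well above background. Its nominal bound was 3.77-fold lower in ALDH-positive cells. With the ALDH-positive intensity set to the lowest one well above background, 12.7, the log2 ratio was -1.91 and the Z-score -2.41, still past the limits. Its other 2 probes were not measured on either array, so the difference rests on 1 dim probe. Without background correction the log2 ratio of the measured intensities was -0.61, and with the normexp correction -0.63, both smaller in size than at the bound. *Sim2*, which has been studied as a regulator of mammary epithelial differentiation, had intensities of 1424 and 1253 (log2 ratio -0.18, within the error of 0.20).

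The E-box repressors *Bhlhe40* and *Bhlhe41*, which encode DEC1 and DEC2, are outputs of the clock and of hypoxia that act against CLOCK and BMAL1. *Bhlhe40* had intensities of 2017 and 2333 (log2 ratio 0.21, error 0.20). *Bhlhe41* had intensities of 84.9 and 72.3 (log2 ratio -0.23, error 0.22). The other probe of *Bhlhe41* was above background only in ALDH-positive cells, with intensities of 8.20 and 22.0 and a nominal bound of 1.68-fold. Its 2 probes therefore had opposite signs, and no direction is given for this gene.

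MYC drives growth and ribosome production as a dimer with MAX. *Myc* had intensities of 2659 and 2695 (log2 ratio 0.02, within the error of 0.20). *Mycl1* had intensities of 37.5 and 33.8 (log2 ratio -0.15, error 0.28), and *Mycn* was not measured. *Max* had intensities of 5399 and 5323 (log2 ratio -0.02, within the error of 0.20). Both *Myc* and *Max* thus had nearly equal intensities in the populations, and with an error of 0.20 a small difference was not detectable.

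The MXD proteins and MNT pair with MAX and repress E-box genes, opposite to MYC. *Mxd1* had intensities of 129 and 162 (log2 ratio 0.33, error 0.21), and its other probe gave 0.09. *Mxd4* had intensities of 129 and 149 (log2 ratio 0.20, error 0.21), and its other probe gave 0.22. *Mnt*, with intensities of 8332 and 9331, had a log2 ratio of 0.16 (error 0.20). *Mxd3* was at 0.08, and *Mxi1* was not measured. All 4 measured partners of MAX in this role lay above 0 in each setting tried and none was higher by the selection. The values of *Mxd4*, *Mnt* and *Mxd3* lay within their errors, and 60.6% of all measured genes lay above 0.

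Of 9 cofactors of the MAX network 8 were measured, of which none was higher or lower, with a median of 0.094. *Sin3a*, the corepressor that MXD proteins recruit, had intensities of 692 and 902 (log2 ratio 0.38, error 0.20). *Sin3b* was at 0.24, but its other probe gave 1.29. *Skp2*, a subunit of a ubiquitin ligase that acts on MYC, had intensities of 806 and 648 (log2 ratio -0.31, error 0.20). All 22 targets of MYC were measured, of which none was higher or lower. The median was -0.026, with 14 values below 0 after quantile normalization and 10 after the 75th percentile shift, where the median turned to 0.015. *Fbl*, a methyltransferase of ribosomal RNA, had intensities of 12636 and 9559 (log2 ratio -0.40, error 0.20), with a Z-score of -2.11 but a ratio above 0.75. *Pa2g4*, a growth-related factor of ribosome assembly, had intensities of 5886 and 4995 (log2 ratio -0.24), but its other probes gave 0.07 and 0.10. *Odc1* was at -0.18, and its other 3 probes lay between -0.68 and -0.15.

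**Figure D3:**
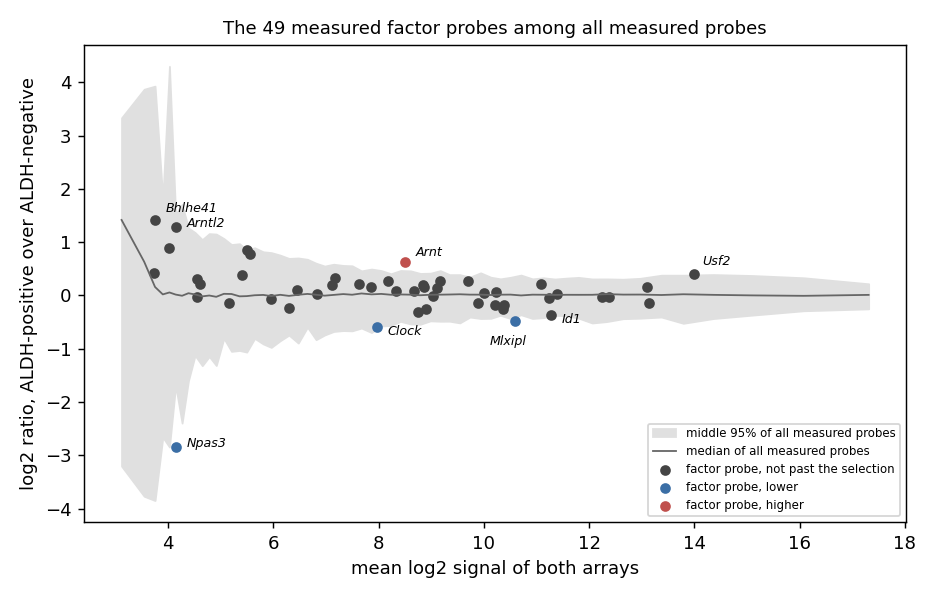
Log2 ratio against mean log2 signal of the 49 measured factor probes, over the median and the middle 95% of all 28585 measured probes in bins of signal (grey). The spread widens toward dim probes, and the probes of *Clock*, *Npas3* and *Mlxipl* (blue) and the other probe of *Arnt* (red) are those past the selection.

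MLX is the partner of the glucose-sensing factors MondoA, encoded by *Mlxip*, and ChREBP, encoded by *Mlxipl*. *Mlxipl* had intensities of 1818 and 1297 (log2 ratio -0.49, error 0.20) with a Z-score of -2.46. Before normalization these signals were 1502 and 1564, nearly equal on arrays whose measured probes differed by a median log2 ratio of 0.49. The other probe of *Mlxipl*, at chr5:135613705-135613764 on the same build and outside the last eighth, had intensities of 33.6 and 60.7 (log2 ratio 0.85, error 0.26). The 2 probes differed in direction by more than both errors, so the gene was lower at its standing probe only. It was lower in 8 of 13 settings, with log2 ratios of 0.18 as the median of its probes and 0.85 without the last eighth of the array. *Mlx* had intensities of 994 and 896 (log2 ratio -0.15, within the error of 0.20). *Mlxip* had intensities of 113 and 116 (log2 ratio 0.03). Its other probe was above background only in ALDH-positive cells, with intensities of 12.0 and 22.2 and a nominal bound of 1.69-fold.

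The listed targets of the MLX network include genes that limit glucose uptake and enzymes of fat synthesis, and 8 of 9 were measured. *Arrdc4*, an arrestin-like gene that limits glucose uptake, was the only one past the selection and was higher in ALDH-positive cells. It had intensities of 57.8 and 116 (log2 ratio 1.01, error 0.23) with a Z-score of 2.73. It was past the limits in 10 of 13 settings and had a log2 ratio of 0.57 with normexp and 0.53 without background correction, under the ratio limit, and a Z-score of 1.60 over all measured probes. *Txnip*, its relative and another response to glucose, was above background only in ALDH-positive cells and did not pass the selection. The intensities were 9.12 and 25.2, with a nominal bound of 1.92-fold. The other probe of *Txnip* had a log2 ratio of -0.40, so its probes disagreed. The enzymes of fat synthesis lay near 0, with *Acly* at 0.14, *Acaca* at 0.09, *Scd1* at -0.0039, *Elovl6* at -0.07 and *Fasn* at -0.13, each within its error of 0.20. The other probe of *Acly* gave -0.25, and those of *Acaca* lay between -0.09 and 0.07.

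USF1 and USF2 are E-box activators present in most cells. *Usf2* had intensities of 14114 and 18737 (log2 ratio 0.41, error 0.20). Its Z-score of 2.09 passed the limit, but its ratio of 1.33 did not. The other probe of *Usf2* had intensities of 1013 and 1044 (log2 ratio 0.04). *Usf1* had intensities of 220 and 246 (log2 ratio 0.16, error 0.21).

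The E proteins are the common partners of tissue-restricted bHLH factors, and the ID proteins bind and inactivate them. *Tcf3* was at -0.04, *Tcf4* at -0.03 and *Tcf12* at -0.02, each within its error of 0.20. All 3 changed sign under the 75th percentile shift, and the other probes gave 0.09 for *Tcf3*, 0.31 for *Tcf4* and -0.31 for *Tcf12*. *Id1* had intensities of 2832 and 2188 (log2 ratio -0.37, error 0.20). *Id2* had intensities of 1452 and 1212 (log2 ratio -0.26, error 0.20), and *Id3* had 9532 and 8626 (log2 ratio -0.14). *Id4* had intensities of 37.1 and 48.3 (log2 ratio 0.38, error 0.25). *Id1*, *Id2* and *Id3* lay below 0 and *Id4* above 0 in each setting tried, and none was higher or lower by the selection. Of the 3 below 0, *Id1* lay farthest from it, with a ratio of 0.773 and a Z-score of -1.30.

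*Twist1*, a bHLH factor known for repressing E-cadherin in the epithelial-mesenchymal transition, had intensities of 523 and 437 (log2 ratio -0.26, error 0.20). *Lyl1*, a factor of blood cells, had intensities of 23.7 and 23.3. Of 7 targets of the ID, TWIST and E proteins 5 were measured, of which none was higher or lower. *Cdh2*, which encodes N-cadherin, had intensities of 45.2 and 16.9 (log2 ratio -1.42, error 0.33) with a Z-score of -1.89, and its other probe gave -1.04. It passed the limits for lower after the 75th percentile shift (log2 ratio -1.58) and with a Z-score over all measured probes, and had a log2 ratio of -0.45 without background correction. *Fn1*, which encodes fibronectin, had intensities of 55271 and 68382 (log2 ratio 0.31, error 0.20). *Cdh1*, which encodes E-cadherin, was at 0.17 and *Vim* at -0.13, both within the error of 0.20.

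The p160 coactivators carry a bHLH and PAS region and bring histone acetyltransferases to nuclear receptors and to bHLH-PAS factors. *Ncoa1* had intensities of 429 and 492 (log2 ratio 0.20, error 0.20), and its other probes gave 0.21 and 0.27. *Ncoa2* had 529 and 580 and a log2 ratio of 0.13, and *Ncoa3* had 1264 and 1123 and -0.17, with -0.06 at its other probe. None was higher or lower. All 6 of their listed partners were measured, and *Crebbp*, which encodes the acetyltransferase CBP, was lower in ALDH-positive cells. It had intensities of 6875 and 4950 (log2 ratio -0.47, error 0.20) with a Z-score of -2.40, and its other probe gave -0.10. It was past the limits in 9 of 13 settings, and its log2 ratio was -0.29 as the median of its probes. The related acetyltransferase gene *Ep300* had intensities of 200.1 and 230.0 (log2 ratio 0.20, error 0.21).

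**Figure D4:**
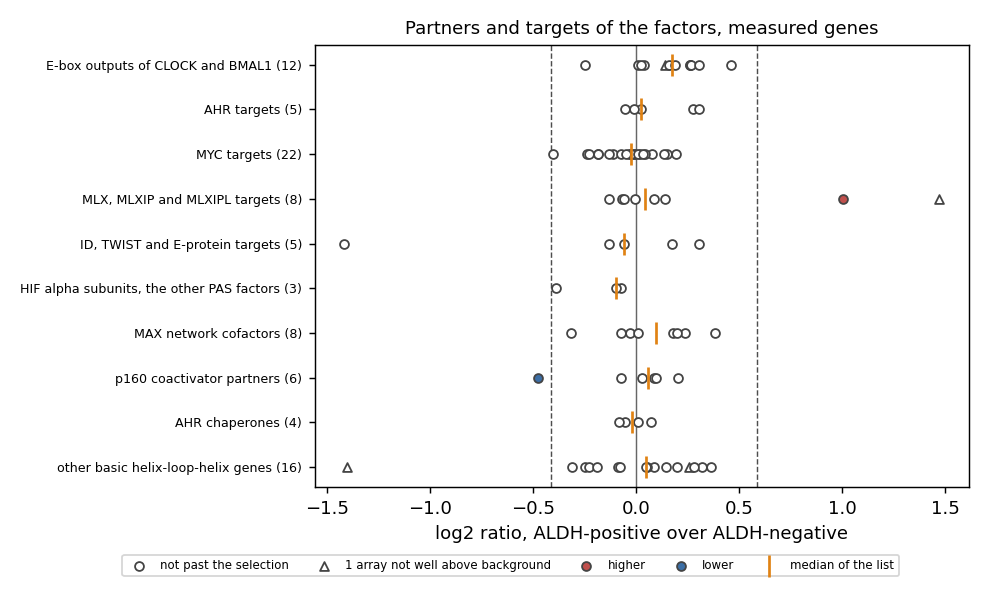
Log2 ratio of the measured genes of 10 lists of partners and targets (number measured in parentheses), with the list median as an orange bar, triangles where 1 array was not well above background and dashed lines at ratios of 0.75 and 1.5. Among them only *Arrdc4* (red, 1.01) and *Crebbp* (blue, -0.47) passed the selection.

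A further list held 46 other bHLH genes, of which 16 were measured, compared with 34 of the 50 factor genes. Of all genes with a symbol on the array, 13989 of 22128 were measured. None of the 16 was higher or lower, with a median of 0.050. *Srebf1*, a regulator of fat synthesis, had intensities of 165 and 212 (log2 ratio 0.36, error 0.21). *Neurod2*, a neuronal factor, was above background only in ALDH-negative cells, with intensities of 13.9 and 5.28 and a nominal bound of 1.10-fold.

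Among the 34 measured factor genes, 13 had several measured probes. Of these, 11 had several probes well above background on both arrays, whose log2 ratios ranged over a median of 0.30 within a gene, compared with 0.18 over the 3785 such genes of the array. The range was 0.017 for *Mxd4* and 1.34 for *Mlxipl*. The probes of *Bhlhe41*, *Mlxipl*, *Tcf3* and *Tcf4* had opposite signs. The other 21 genes were measured with 1 probe and could not be compared in this way, and *Clock* and *Npas3* are among them.

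**Figure D5:**
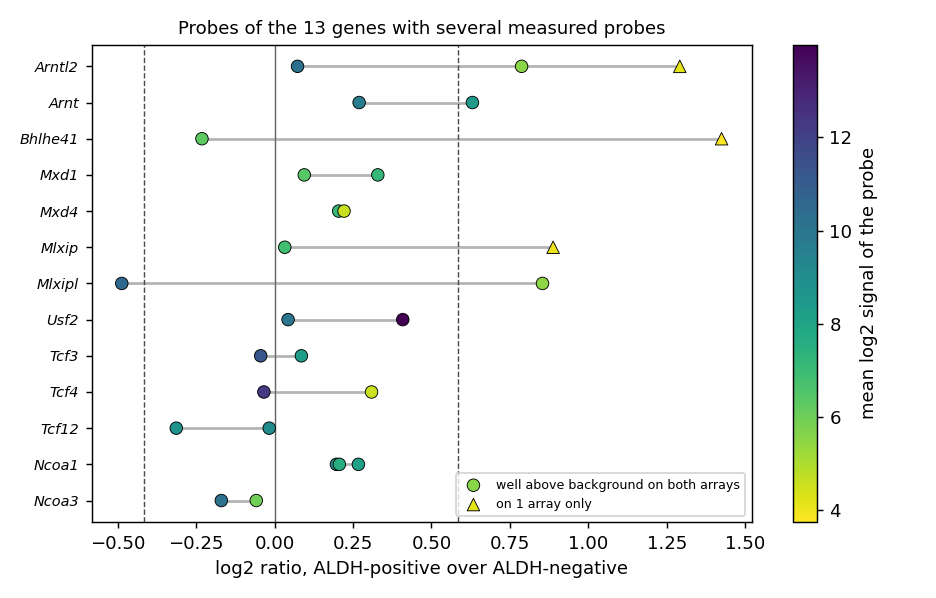
Log2 ratio of each measured probe of the 13 factor genes with several measured probes, coloured by mean log2 signal, with triangles for probes above background on 1 array only and dashed lines at ratios of 0.75 and 1.5. The triangles show measured values for which the text gives a nominal bound. The probes of *Mlxipl* (-0.49 and 0.85) lie on opposite sides of 0, and the 3 of *Ncoa1* lie between 0.20 and 0.27.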

How the data were processed

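RNA of each population was labelled with Cy3 and read on 1-colour Agilent arrays. The authors read intensities by Agilent Feature Extraction, 9.5.1.1 by the labels and methods and 10.7.1.1 in the file headers, and deposited a table of quantile-normalized intensities. The labels name the ReliaPrep kit for the RNA and the methods name RNeasy. From the deposited processed signals, control spots and population outliers were left out, signals under 1 were set to 1, log2 values of repeated spots were averaged and both arrays were quantile-normalized (Python 3.11.15, numpy 2.4.6, pandas 2.3.3, and limma 3.58.1 in R 4.3.3 for normexp with offset 50). A probe above background on 1 array gave its fold only as a nominal bound, set by the lowest signal among probes well above background on the dim array. A signal not above background can exceed that lowest signal, so the bound is no strict limit. Probe symbols came from the array files and from RefSeq, where 70 of the 73 accessions were found. The 50 genes, the lists and the roles were chosen with earlier results of these data known. From the lists, genes past the selection and then up to 2 measured genes farthest from 0 were named, and others were added after their values were seen. The steps were tested on simulated data. The alternatives were a 75th percentile shift, other background corrections, the deposited table, other probe filters, other windows and limits of the selection, and corrections for array position.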

Additional observations from a re-analysis of the deposited data

How the results depend on the processing

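The count of factor genes higher in ALDH-positive cells was 0 in each of the 13 settings tried. The count of those lower was 3 by the settings of the report, 1 after a 75th percentile shift, 1 with a Z-score over all measured probes (*Npas3* in both) and 0 without the probes printed in the last eighth by row or by column, an alternative chosen after seeing the data. The last of these removed the standing probes of all 3 genes. In the other settings it was 2 or 3, and it was 3 with dim signals set to the lowest one above background, also chosen after seeing the data. *Npas3* was lower in all 11 settings that measured it, *Clock* in 9 of 12 and *Mlxipl* in 8 of 13. *Npas3* was measured only through ALDH-negative cells. The filter for both arrays and the setting without the last eighth left it out, so neither could check it. *Mlxipl* reversed to 0.18 as the median over its probes and to 0.85 outside the last eighth, where its other probe stands for it. The median log2 ratio of the factor genes ranged from -0.031, after subtracting the neighbours on the array, to 0.14, with the median over all probes of each gene. The median over all measured genes was 0.026 and 0.040 in these settings. The factor genes thus lay below all measured genes after subtracting the neighbours and above them with the median over all probes. Of 266 gene values under the alternatives, 257 kept within the error or the spread, 7 moved (5 genes) and 2 reversed. Many of these values could not change. The filter for both arrays kept the same standing probes, and genes with 1 measured probe kept their value as the median over probes. The count is therefore no measure of stability. No replicate could be left out and no paired analysis was possible because each population had a single array. Below a signal of about 13 probes were not above background, which limits what can be said of dim genes.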
